A study of Rattus norvegicus with 6 samples.

Results

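The genes described here are 8 claudins (Cldn2, Cldn3, Cldn4, Cldn7, Cldn8, Cldn10, Cldn16 and Cldn19), the scaffold gene Tjp1 and the occludin gene Ocln, all members of the epithelial tight junction. They were taken by name, as every probe set whose single gene symbol was 1 of these 10. The rule found 12 of 31042 probe sets for 10 of 14217 named genes. Kidney RNA of 6 adult male rats was hybridised to 6 Affymetrix arrays, 1 per rat. The congenic group held 3 rats of the strain S.LEW(D1MCO4x1x3Bx1), in which a stretch of chromosome 1 comes from the Lewis rat on an otherwise Dahl salt-sensitive background, as the strain name denotes. The other group held 3 inbred Dahl salt-sensitive (SS/Jr) rats, called S here, whose background both groups share. The labels give no treatment and no age beyond adult, and the extent of the donor segment is not given in the sources used here. Each array title carries its own code, read here as the number of the animal.

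Claudins are membrane proteins that join neighbouring epithelial cells at the tight junction, and the claudins a tubule segment makes set which ions pass between its cells. Pore-forming claudins let selected ions through, whereas sealing claudins hold them back. In the kidney the proximal tubule is leaky, the thick ascending limb passes sodium, calcium and magnesium between its cells, and the distal tubule and collecting duct form the tightest epithelium. The intracellular scaffold proteins of the zonula occludens family tie the claudins to actin. For this description Cldn2, Cldn10 and Cldn16 were counted as pore-forming and Cldn3, Cldn4, Cldn7, Cldn8 and Cldn19 as sealing. That division is a simplification, since Cldn19 acts together with Cldn16 and since sealing claudins such as Cldn4 and Cldn8 have also been described as part of a chloride path.

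The values are scaled probe set signals on a linear scale, and a group value is the mean ± SD over 3 rats. Differences are limma estimates on the log2 scale, congenic minus S, with a 95% interval. The trimmed means of all arrays lay at 500.2, median signals were 162 to 174 in congenic and 170 to 178 in S kidneys, and the beta-actin ratio of 3' over 5' signal was 1.94 to 2.06 in congenic and 1.99 to 2.30 in S kidneys. The tissue carried its defining transcripts, with Umod signals of 24420 to 37749 and Slc12a1 signals of 6093 to 9056 over the 6 arrays. Because no detection calls were used, signals are compared between rats within a probe set and not between genes. These are whole-tissue samples, so fewer cells of a type and less RNA per cell cannot be told apart.

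Among the 10 genes, Cldn8 and Cldn10 had signals below all S rats in all 3 congenic rats, with congenic over S folds of 0.797 for Cldn8 and 0.856 for Cldn10. Neither passed the threshold of adjusted p 0.05, and limma called 0 of the 10 genes, with a background of 0% of the 15521 probe sets tested. At unadjusted p below 0.05 it gave 2 of the 10, Cldn8 and Cldn10, both lower, where 10.3% of all probe sets tested reached that level in either direction, 5.61% as lower and 4.72% as higher. The groups did not overlap for the same 2 genes, against 16% of all probe sets tested in either direction and 7.99% as lower. Of the 10 log2 differences 8 were below 0, with a median of -0.08, against 51.8% below 0 and a median of -0.01 over all probe sets tested. All 10 main probe sets passed the filter on low signals.

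**Figure D1:**
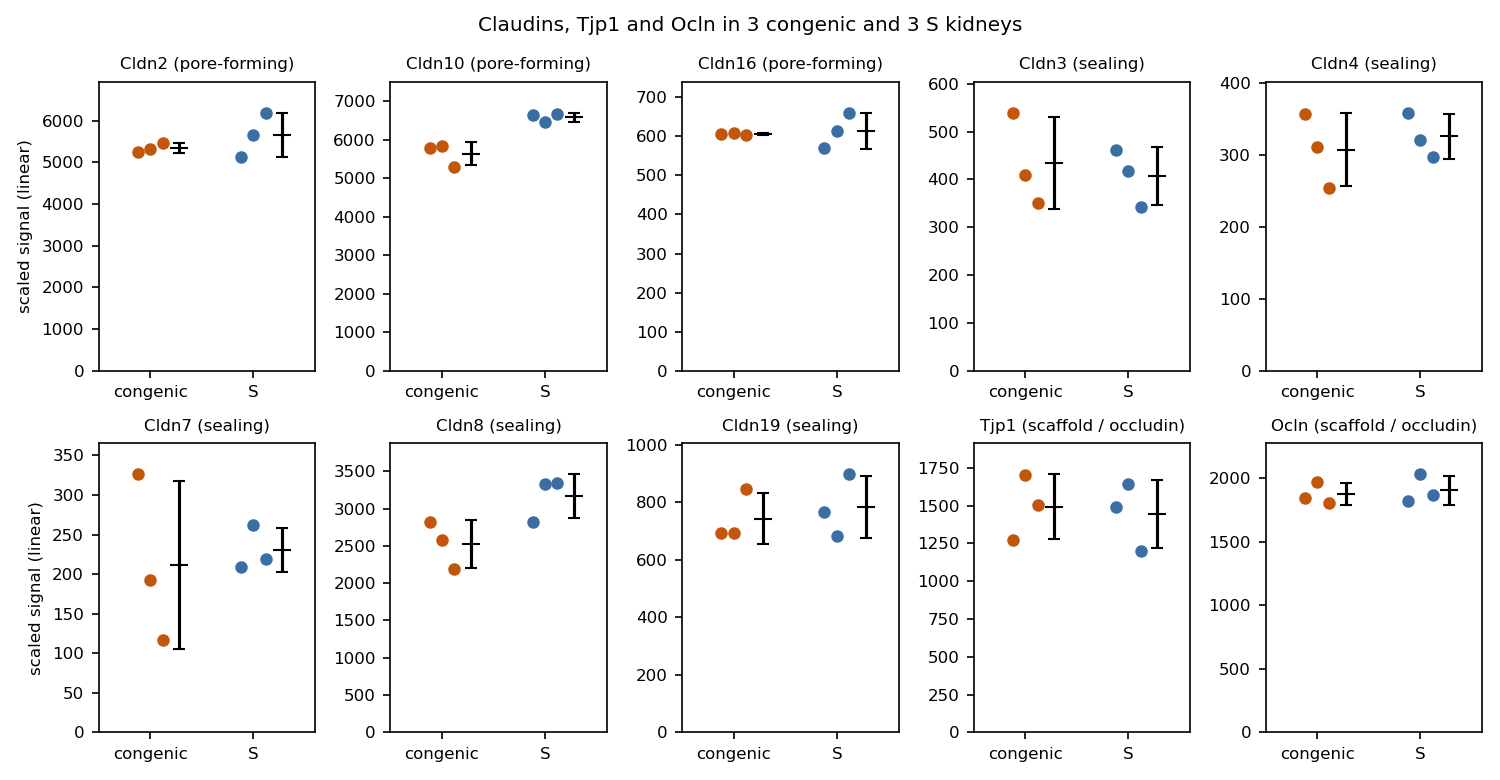
Scaled signal (linear axis from 0) of the main probe set of each gene, with 1 point per rat, congenic left and S right; black bars are the mean ± SD of 3 rats. Cldn8 and Cldn10 are the panels in which all congenic points lie under all S points, by a wide gap for Cldn10 and by a gap of 2821 to 2825 for Cldn8.

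Cldn10 forms ion pores, and in mouse and human its splice forms serve the anion path of the proximal tubule and the cation path of the thick ascending limb. Its probe set read 5793, 5834 and 5289 in congenic rats 1 to 3, against 6646, 6448 and 6660 in S rats 1 to 3. The highest congenic value was thus well under the lowest S value. The means were 5639 ± 303 in congenic and 6585 ± 119 in S kidneys (SD, n = 3 each), a log2 difference of -0.22 with a standard error of 0.08 and an interval of -0.39 to -0.06. The fitted change was -14.4%. In limma the unadjusted p was 0.00974 and the adjusted p 0.321, and the 2-sided exact permutation test gave p = 0.1, the smallest that 3 against 3 rats allow. Only 1 probe set represents Cldn10, and the sources used here do not say which splice form it reads.

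Cldn8 is a barrier claudin of the distal tubule and collecting duct, and in mouse it is a target of the ubiquitin ligase adaptor KLHL3. It read 2821, 2585 and 2186 in congenic rats 1 to 3, against 2825, 3334 and 3342 in S rats 1 to 3. Congenic rat 1 and S rat 1 had nearly the same signal, so the separation of the groups at that point is narrow, while the other S rats stood above all congenic rats. The means were 2530 ± 321 in congenic and 3167 ± 296 in S kidneys, a log2 difference of -0.33 with a standard error of 0.10 and an interval of -0.55 to -0.10. In limma the unadjusted p was 0.00691 and the adjusted p 0.294, and the exact permutation test gave p = 0.1. Of all probe sets tested, 2.33% had a p as small as that of Cldn8 or smaller, and 3.03% as small as that of Cldn10.

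The starts of these 2 genes are shown because their signals were the ones that did not overlap between the strains. The windows run from 250 bases before to 50 bases after the gene start in RefSeq on GRCr8, the assembly of the BN rat, which is neither of the strains measured. The Cldn8 window is chr11:41364281-41364580 on the minus strand and the Cldn10 window is chr15:102269608-102269907 on the plus strand. Capitals mark CCAAT or GTTAAT on either strand.
Cldn8: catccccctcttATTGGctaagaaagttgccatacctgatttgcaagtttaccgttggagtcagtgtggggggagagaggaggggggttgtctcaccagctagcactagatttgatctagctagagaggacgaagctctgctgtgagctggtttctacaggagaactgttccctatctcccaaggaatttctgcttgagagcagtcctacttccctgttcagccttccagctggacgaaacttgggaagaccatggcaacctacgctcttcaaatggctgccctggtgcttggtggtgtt
Cldn10: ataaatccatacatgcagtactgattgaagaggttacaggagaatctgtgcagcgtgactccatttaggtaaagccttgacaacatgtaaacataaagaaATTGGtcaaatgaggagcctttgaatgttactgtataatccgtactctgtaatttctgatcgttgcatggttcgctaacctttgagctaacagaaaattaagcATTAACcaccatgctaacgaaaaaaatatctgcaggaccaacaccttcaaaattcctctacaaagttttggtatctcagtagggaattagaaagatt
Both windows held CCAAT on the reverse strand, beginning 238 bases before the start in Cldn8 and 150 bases before it in Cldn10, and 37.5% of 33469 windows of the same length hold these letters on either strand. GTTAAT, the core of hepatocyte nuclear factor 1 sites, began 47 bases before the start in Cldn10 and was in 7.45% of all windows. The letters searched on both strands were TATAAA (the TATA box), CCAAT (the box bound by NF-Y), GGGCGG (the GC box), CACGTG (an E-box that reads the same on both strands), GTTAAT and finally CCGGTT (part of the grainyhead-like site), and no matches overlapped in these 2 windows. Of the 8 members with a window in the table, 3 held CCAAT, 3 the GC box, 2 the hepatocyte nuclear factor core, 1 the grainyhead-like letters and 0 the TATA box or the E-box. Among all windows 33.1% held the GC box, 7.04% the grainyhead-like letters, 14.2% the TATA box and 6.42% the E-box. The GC content was 51.3% for Cldn8 and 37% for Cldn10. A match describes the letters alone. Distances are counted from the annotated gene start, and whether transcription begins there in these kidneys was not tested.

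The remaining pore-forming claudins showed no difference larger than the spread between rats. Cldn2, the cation and water pore of the proximal tubule, read 5244, 5314 and 5471 in congenic rats, against 5136, 5649 and 6195 in S rats. The congenic rats were close together and lay inside the range of the S rats. The log2 difference was -0.08 (interval -0.26 to 0.10, adjusted p = 0.771 in limma), so that changes outside -16.3% to 7.07% lie beyond it. Cldn16, the thick ascending limb claudin needed for magnesium and calcium reabsorption and mutated in human familial hypomagnesaemia, read 607, 608 and 603 in congenic rats, against 569, 612 and 660 in S rats. All congenic values again fell within the S range. Its log2 difference was -0.02 (interval -0.28 to 0.25, adjusted p = 0.975). The coefficient of variation of Cldn16 was 0.401% among congenic and 7.47% among S rats, and that of Cldn2 was 2.17% among congenic and 9.36% among S rats. For Cldn10 it went the other way, at 5.38% among congenic and 1.80% among S rats. It was also higher among congenic rats for Cldn3, Cldn4, Cldn7 and Cldn8, and lower for Cldn19 and the main probe sets of Tjp1 and Ocln. The pore-forming claudins together had a median log2 difference of -0.08, with 3 of 3 below 0.

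Cldn19, the partner of Cldn16 in the thick ascending limb and likewise mutated in human hypomagnesaemia, read 692, 692 and 846 in congenic rats, against 765, 684 and 899 in S rats. The strains overlapped, and 1 rat of each stood above the others. The log2 difference was -0.07 (interval -0.36 to 0.21, adjusted p = 0.884 in limma). Both claudins of this pair thus had intervals that span 0, and for Cldn19 the interval covers changes of -21.9% to 15.9%.

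**Figure D2:**
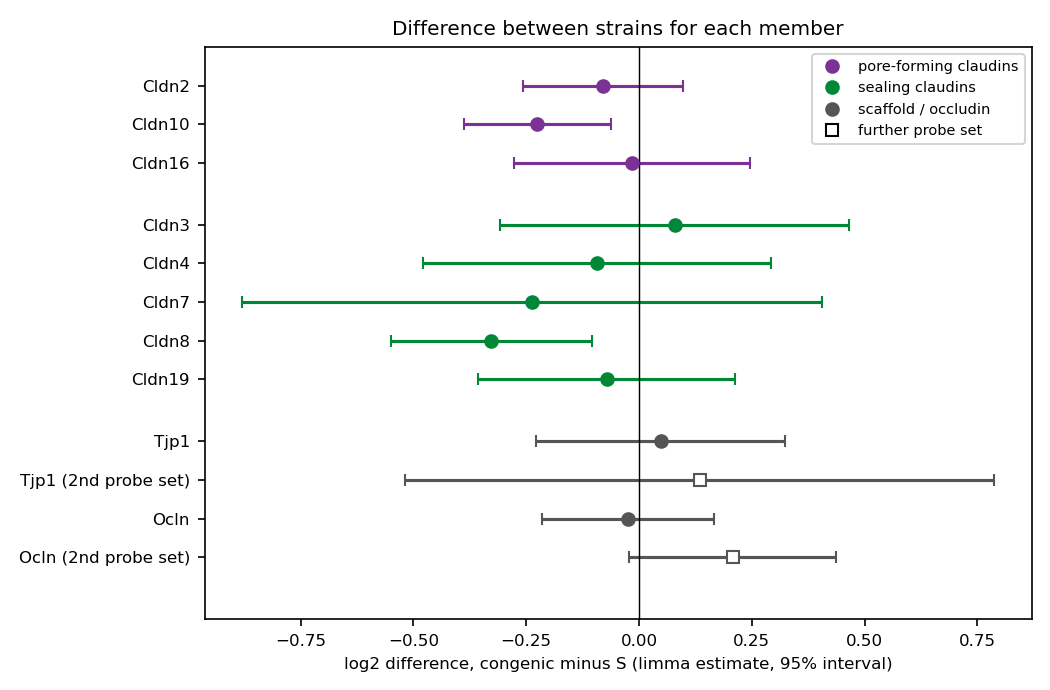
Log2 difference, congenic minus S, with its 95% interval (limma) for all 12 probe sets, grouped as pore-forming claudins, sealing claudins and scaffold or occludin genes; open squares are further probe sets of a gene. The intervals of Cldn8 and Cldn10 lie below 0 and those of the other probe sets include 0.

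The other sealing claudins belong to the distal nephron and collecting duct, and they varied more between rats of a strain than between strains. Cldn3, a barrier claudin of these segments, read 540, 410 and 351 in congenic rats, against 461, 417 and 343 in S rats. The ranges nearly coincided, and the log2 difference was 0.08 (interval -0.31 to 0.47, adjusted p = 0.907 in limma). Cldn4, which works together with Cldn8 in mouse collecting duct cells, read 356, 311 and 255 in congenic rats, against 359, 321 and 297 in S rats. The log2 difference of Cldn4 was -0.09 (interval -0.48 to 0.29, adjusted p = 0.888).

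Cldn7, a collecting duct claudin whose loss in mouse leads to renal salt wasting, had the widest spread. It read 326, 192 and 117 in congenic rats, against 209, 262 and 219 in S rats. Congenic rat 1 lay above all S rats and the other congenic rats below them. The log2 difference was -0.24 (interval -0.88 to 0.40, adjusted p = 0.814), and the interval covers changes of -45.6% to 32.4%. Without congenic rat 1 the log2 difference of Cldn7 was -0.61 with unadjusted p = 0.0432 and adjusted p = 0.451, and without congenic rat 3 it was 0.13. The coefficient of variation was 50.1% in congenic and 12.1% in S rats. The 5 sealing claudins had a median log2 difference of -0.09 with 4 of 5 below 0. Without congenic rat 3 that median was 0.035.

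Within the congenic strain, Cldn3, Cldn4, Cldn7 and Cldn8 all had their highest signal in rat 1 and their lowest in rat 3. This order held for 4 of the 10 members, and for 18.6% of all probe sets tested. Relative to each gene's mean over the 6 arrays, congenic rat 3 had log2 deviations of -0.24 for Cldn3, -0.30 for Cldn4, -0.85 for Cldn7 and -0.37 for Cldn8. In congenic rat 1 they were 0.38, 0.18, 0.63 and 0.0011 in the same order of genes. Among S rats the claudins did not share an order: Cldn3 and Cldn4 were lowest in S rat 3, whereas Cldn8 was highest there. Cldn3 and Cldn4 are neighbouring genes on chromosome 12. Cdh1, the epithelial cadherin of the adherens junction, read 1820, 1173 and 944 in congenic rats, against 1488, 1527 and 1844 in S rats, and so had the same congenic rat highest and the same lowest. In the adherens junction list 5 of 12 tested genes had this congenic order, and of the principal cell markers of the collecting duct 3 of 10 had it. So did 4 of 7 smooth muscle and stromal genes, 2 of 4 other claudins and 1 of 14 proximal tubule markers. Slc14a2, a urea transporter gene of the inner medulla, read 761, 553 and 506 in congenic rats, against 667, 737 and 804 in S rats. Of the 5 thin limb and medullary markers 2 had this order, Slc14a2 included, and the other 3 were highest in congenic rat 3. The part of these genes in the claudin values was not tested.

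**Figure D3:**
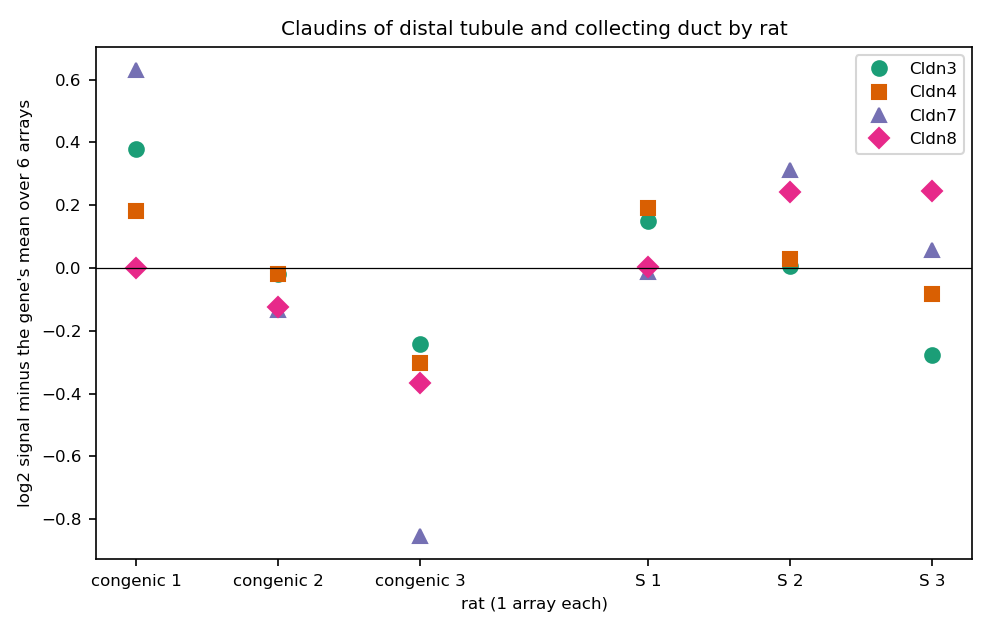
Log2 signal of Cldn3, Cldn4, Cldn7 and Cldn8 relative to each gene's mean over the 6 arrays (vertical axis), by rat (horizontal axis, congenic left, S right), with 1 symbol per gene. In the congenic strain rat 1 is highest and rat 3 lowest for all 4 genes, with Cldn7 running from 0.63 to -0.85.

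Congenic rat 3 also bears on the 2 genes with non-overlapping groups. Without it the log2 difference of Cldn8 was -0.23 with unadjusted p = 0.0523, that of Cldn10 was -0.18 with unadjusted p = 0.0572, and 0 of the 10 members were at unadjusted p below 0.05. Over all 15 alternatives the log2 difference of Cldn8 ran from -0.41 to -0.23 and that of Cldn10 from -0.28 to -0.15, below 0 in each. The unadjusted p was below 0.05 in 14 of 15 alternatives for Cldn8 and in 12 of 15 for Cldn10. For Cldn10 the exceptions besides congenic rat 3 were centring of each array on its median, with -0.15 and unadjusted p = 0.103, and a variance model without the intensity trend, with unadjusted p = 0.0526. Adjusted p ran from 0.164 to 0.637 for Cldn8 and from 0.214 to 0.623 for Cldn10, so that neither was called in any of them.

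**Figure D4:**
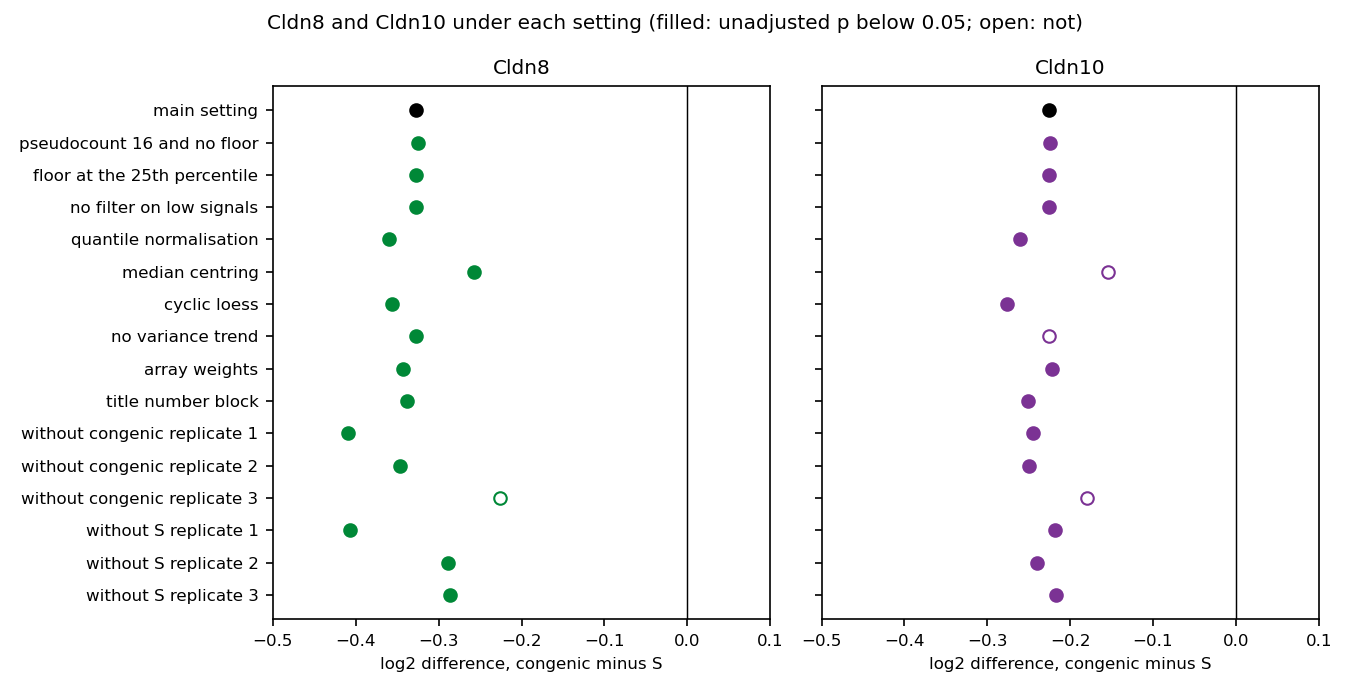
Log2 difference, congenic minus S, of Cldn8 (left) and Cldn10 (right) in the main setting (black) and in 15 alternatives, 1 per row; filled symbols have unadjusted p below 0.05. All estimates lie below 0, and the estimate nearest to 0 is -0.23 for Cldn8 and -0.15 for Cldn10.

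Tjp1 encodes ZO-1, the scaffold that binds claudins and occludin on the cytoplasmic side. Its main probe set read 1270, 1702 and 1507 in congenic rats, against 1492, 1645 and 1202 in S rats. The strains overlapped almost fully, with a log2 difference of 0.05 (interval -0.23 to 0.32, adjusted p = 0.923 in limma). A second Tjp1 probe set was too dim to pass the filter, with means of 129 ± 31.9 in congenic and 115 ± 10.7 in S kidneys and a log2 difference of 0.13 (interval -0.52 to 0.79). Tjp1 is the only member on chromosome 1, the chromosome of the donor segment, and 1179 protein-coding genes stand between it and Adamts16, the chromosome 1 gene that the study's title names, in the gene order of GRCr8. The other 9 members lie on chromosomes 2, 5, 10, 11, 12, 15 and X.

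Ocln encodes occludin, a membrane protein of the junction strands. The main probe set read 1841, 1973 and 1808 in congenic rats, against 1819, 2034 and 1867 in S rats, and the strains overlapped. The log2 difference was -0.02 (interval -0.21 to 0.17, adjusted p = 0.947 in limma). The second Ocln probe set, however, read 945, 963 and 871 in congenic rats, against 819, 765 and 819 in S rats. Each congenic rat was above each S rat there, as for 7.98% of all probe sets tested, and the log2 difference was 0.21 (interval -0.02 to 0.44). In limma its unadjusted p was 0.0723 and its adjusted p 0.521. The 2 probe sets of Ocln therefore differed in sign, and neither passed.

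The markers of the segments that make these claudins went both ways. Of 10 principal cell markers of the collecting duct, all tested, 7 were below 0 and 3 above, with a median log2 difference of -0.09 and 0 called by limma at adjusted p 0.05. At unadjusted p below 0.05, Hsd11b2, the enzyme that protects the mineralocorticoid receptor, read 5447 ± 256 in congenic and 4585 ± 315 in S kidneys, a log2 difference of 0.25. The potassium channel subunit gene Kcne1 read 156 ± 20.3 in congenic and 237 ± 41.4 in S kidneys, a log2 difference of -0.60. At that level 1 marker was thus higher and 1 lower, beside 4.72% and 5.61% of all probe sets tested. Fxyd4, a regulator of the sodium pump, had -0.14. The summed signal of these 10 markers was 20875 to 22992 in congenic and 19681 to 22242 in S kidneys, and thus overlapped. The lowest of their array signals was 140, and none was 0. For intercalated cells 6 of 7 measured markers were tested, with a median of 0.12, 0 at unadjusted p below 0.05, and sums of 10246 to 10654 in congenic and 9815 to 10644 in S kidneys. Of the 6 tested, 2 were below 0 and 4 above, and Rhcg had 0.19, Slc26a4 0.14 and Atp6v1b1 0.21. The marker under the filter on low signals was Aqp6, named after its values were seen. It went the other way, at 64.7 ± 13.1 in congenic and 149 ± 53.4 in S kidneys, and the groups did not overlap. Of the probe sets that passed the filter, 16% had groups that did not overlap, 7.99% as lower. In the limma fit of all probe sets, 7.93% reached unadjusted p below 0.05. There Aqp6 had a log2 difference of -1.17 with unadjusted p = 0.0182. Without detection calls its signals cannot be separated from background.

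For the thick ascending limb, the segment of Cldn16, Cldn19 and a Cldn10 splice form, 8 markers were tested, with 5 below 0, 3 above and a median log2 difference of -0.09. Slc12a1, the sodium-potassium-chloride cotransporter, had -0.26 and Umod, the uromodulin gene, had 0.25, both at unadjusted p below 0.05. The strains overlapped for Slc12a1 and for Umod. Egf, a growth factor gene of the thick ascending limb and distal tubule, had -0.14. The summed signal was 64093 to 70913 in congenic and 61820 to 68608 in S kidneys. Such sums, here and for the other lists, follow the brightest probe sets most. For the thick ascending limb that is Umod, and for the distal convoluted tubule it is Calb1. For the distal convoluted tubule 4 of 6 measured markers were tested, with a median of -0.02, 0 at unadjusted p below 0.05, and sums of 18260 to 20793 in congenic and 18365 to 21142 in S kidneys. Slc12a3, the thiazide-sensitive cotransporter, had -0.15, Slc8a1 -0.09 and Klhl3 0.12. Of 14 proximal tubule markers, the cells of Cldn2, 4 were below 0 and 10 above, with a median of 0.11 and sums of 241325 to 268366 in congenic and 219847 to 245366 in S kidneys. Slc4a4 had -0.21 and Pck1 0.21, both at unadjusted p below 0.05, and Slc5a2 had 0.17. Of 5 thin limb and medullary markers the median was 0.12, with Akr1b1 at 0.28, Slc14a2 at -0.30 and Cryab at 0.12, and sums of 28589 to 30987 in congenic and 28808 to 30044 in S kidneys. None of these segment markers was called at adjusted p 0.05. At unadjusted p below 0.05 stood 10.3% of all probe sets tested, 5.61% as lower and 4.72% as higher.

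Other cell types gave no call at adjusted p 0.05 either, and their sums overlapped between strains for each list. The podocyte list had a median log2 difference of 0.0022 over 5 tested genes, with Synpo at 0.14, Wt1 at -0.14 and Nphs1 at 0.12. The endothelial list had 0.0021 over 7, with Vwf at 0.63 (unadjusted p below 0.05), Ehd3 at -0.42 and Flt1 at -0.32. Smooth muscle and stromal genes had -0.11 over 7, with Acta2 at -0.36 (unadjusted p below 0.05), Pdgfrb at -0.33 and Myh11 at -0.21, and immune genes 0.12 over 6, with Cd68 at 0.63 and C1qb at 0.36, both at unadjusted p below 0.05, and Ptprc at -0.35. The erythrocyte genes Hbb and Alas2 had -0.42 and -0.55, both at unadjusted p below 0.05 although the strains overlapped. Beside these lists, 10.3% of all probe sets tested were at unadjusted p below 0.05, 5.61% as lower and 4.72% as higher. The adrenal gene Mrap had 0.04. All 6 urothelial genes were too dim to pass the filter, with sums of 555 to 709 in congenic and 585 to 731 in S kidneys.

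Around the 10 members, other genes of the tight junction, genes listed as junction regulators and adherens junction genes were described from 5 lists. Of these limma called 0 genes at adjusted p 0.05. Of 9 other claudins measured, 4 passed the filter on low signals, and 0 of the 4 were at unadjusted p below 0.05. Cldn1, the sealing claudin of many epithelia, did not overlap between the strains and was lower in congenic rats, as were 7.99% of all probe sets tested. It read 371, 342 and 349 in congenic and 405, 431 and 404 in S rats, a log2 difference of -0.22 (adjusted p = 0.620 in limma). Cldnd1 had 0.07 and the endothelial claudin gene Cldn5 had 0.03. Of 11 further junction membrane genes tested, 1 was at unadjusted p below 0.05 and higher, namely Igsf5, also known as JAM4, at 0.23. Over all probe sets tested 10.3% reached that level in either direction and 4.72% as higher. The junctional adhesion molecule gene F11r had 0.17 and Lsr, the angulin-1 gene of tricellular junctions, had 0.19.

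Of 21 tested genes for scaffold and polarity proteins, 3 reached unadjusted p below 0.05 as higher and 1 as lower, beside 4.72% and 5.61% of all probe sets tested, with a median of 0.03. Amotl2, an angiomotin-like scaffold, read 2693, 2451 and 2313 in congenic rats, against 2149, 1900 and 1956 in S rats, a log2 difference of 0.31 (unadjusted p = 0.00397, adjusted p = 0.276 in limma). Prkci, the atypical protein kinase C of the Par polarity complex, had 0.39 and its partner Pard6b had 0.21. The lower gene was Wwc1, named after its values were seen, at -0.32. Of 23 tested regulators, 2 were higher and 0 lower at that level, against the same background of 4.72% and 5.61%. These were Arhgef18, a guanine nucleotide exchange factor for RhoA, at 0.30 and Cap1 at 0.19, and Rhoa itself had -0.15. Of 12 tested adherens junction genes, 0 reached that level as higher and 2 as lower, where 5.61% of all probe sets tested were lower. The 2 were the actin linkers Vcl at -0.24 and Afdn at -0.21, and Cdh1 had -0.35. The medians of the regulators and the adherens junction genes were 0.06 and -0.07, beside -0.01 over all probe sets tested.

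**Figure D5:**
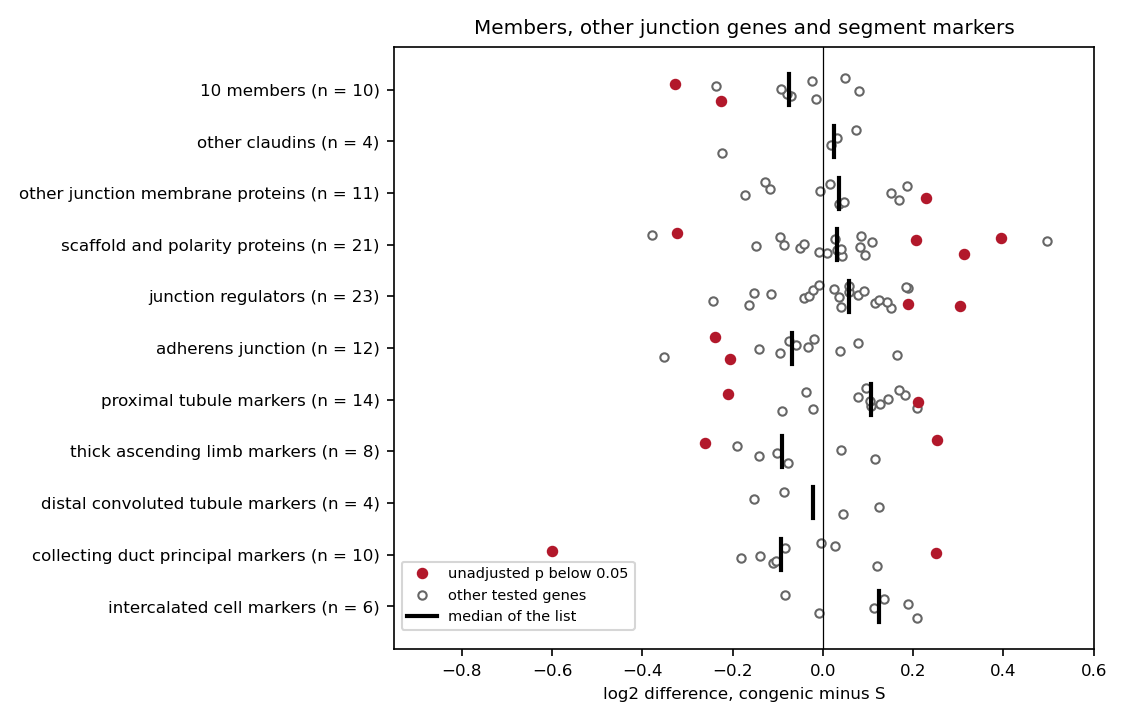
Log2 difference, congenic minus S (horizontal axis), of every tested gene in the 10 members, 5 lists of other junction genes and 5 lists of segment markers; red points have unadjusted p below 0.05, open points do not, and black bars are medians. The members have a median of -0.08, the scaffold and polarity genes 0.03 and the adherens junction genes -0.07.

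The profile of Cldn8 over the 6 arrays was set beside those of 9324 other named genes. The closest were Dusp3 (Pearson r = 0.988), a dual-specificity phosphatase gene, Cnot7 (r = 0.987), a deadenylase gene of the CCR4-NOT complex, and Lsm5 (r = 0.983), a gene of the Lsm RNA-binding ring. With 6 arrays 165 genes had r of at least 0.9, and all share the arrays, their scaling and the strain contrast, so that the order describes these arrays alone.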

How the data were processed

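The deposited signals are intensities on a linear scale, and GCOS 1.4 is the tool that the submitters' processing notes name. Of its settings, the detection calls and the annotation build, these sources say nothing. Scaling is inferred from the values, whose means were equal across arrays once 2% was trimmed at either end. Leaving out 57 array controls of 31099 probe sets gave 31042. Names came from the platform annotation, updated through Entrez identifiers: 20826 probe sets had 1 symbol, 436 had several and 9780 had none, and the last 2 kinds stayed unnamed. GRCr8 served for names, gene order and gene starts.

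Signals below 12.3, the 10th percentile, were set to that value before the log2 transform. Probe sets above the median mean log2 signal, 15521 in all, were tested with limma 3.58.1 in R 4.3.3 (intensity trend, Benjamini-Hochberg adjustment over all of them), a procedure that was also tested on simulated data. The simulated folds were 1.5 or more, larger than the fold of any member, so recovery of differences as small as the members' was not tested. The typical (median) standard error on the log2 scale was 0.14, limited by the number of arrays. Each gene is read from its probe set of highest mean signal, and a dimmer one from a fit of all 31042. Alternatives covered the floor, pseudocount, filter, normalisation, array weights, variance model, title number as a block, and each rat left out in turn. All members are named, as are up to 3 genes per list, by smallest p. The members and gene lists were chosen with earlier results of these data known. Figures were drawn with matplotlib 3.10.9.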

Additional observations from a re-analysis of the deposited data

How the results depend on the processing

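No member was called at adjusted p 0.05 in limma under any of 15 alternatives. The count of members at unadjusted p below 0.05 was 2, beside 10.3% of all probe sets, but 1 after median centring of the arrays (12%), 1 without the variance trend (9.23%), and 0 to 3 with 1 rat left out (7.37% to 12.4%), 0 of these without congenic rat 3 (8.18%). The count over all probe sets at adjusted p 0.05 was 0, but 9 after median centring and 0 to 41 with 1 rat left out (6 without congenic rat 1, 3 without congenic rat 3 and 41 without S rat 1). Cldn2, Cldn8 and Cldn10 stayed below 0 in all 15 alternatives. The sealing claudin median ran from -0.21 to 0.035 with 1 rat left out and turned positive without congenic rat 3, and the pore-forming median stayed below 0, at -0.147 without S rat 1, -0.012 without S rat 3 and -0.0086 after median centring.

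Sign changes concerned members whose intervals span 0. Cldn16 had 0.012 after quantile normalisation, 0.055 after median centring, 0.0051 after cyclic loess, 0.0095 with a block for the title number, and -0.069 to 0.038 with 1 rat left out. Cldn3 had -0.039 with the title number block and -0.090 to 0.22 with 1 rat left out. Ocln had 0.047 after median centring, 0.092 as the mean of its probe sets and -0.062 to 0.023 with 1 rat left out. With 1 rat left out Cldn4 ran from -0.21 to 0.035, Cldn7 from -0.61 to 0.13, Cldn19 from -0.17 to 0.032 and Tjp1 from -0.080 to 0.16. Median centring adds 0.071 to each member's difference, which by itself turns the sign of Cldn16 and Ocln, and the cause of the other changes was not tested. The title number block compares arrays whose title opens with a number below 10 with the others. No paired analysis was possible because the labels link no congenic rat to an S rat. Without detection calls, signal over background is not known for any member.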

Other observations

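In the 5 lists of other junction genes 14 genes were under the filter on low signals, so they are outside the adjusted test, and without detection calls their signals cannot be separated from background. The groups did not overlap for 3 of these 14, Cxadr, Cldn18 and Pard3, and overlapped for the other 11. In the limma fit of all 31042 probe sets the same 3 were at unadjusted p below 0.05. In that fit 7.93% of all probe sets reached this level. Cxadr, the coxsackievirus and adenovirus receptor gene of epithelial junctions, named after its values were seen, read 5.11, 4.15 and 4.57 in congenic rats, against 29.7, 25.3 and 27.3 in S rats. All congenic values lay under the floor of 12.3 and all S values above it, and each group was tight around its mean. Cldn18, a claudin known from lung and stomach and also named after its values were seen, read 63.5, 77.6 and 121 in congenic rats, against 9.62, 7.13 and 54.4 in S rats. Pard3, the Par polarity scaffold gene, likewise named after its values were seen, read 146, 138 and 144 in congenic rats, against 208, 181 and 185 in S rats. Groups that do not overlap were found for 16% of the probe sets that passed the filter.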
